A study of Homo sapiens with 8 samples.

Results

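The 10 genes described here make, break down and regulate the polyamines: ODC1, AMD1, SRM and SMS for synthesis, SAT1, PAOX and SMOX for catabolism, and OAZ1, OAZ2 and AZIN1 for control of ornithine decarboxylase. They were selected on gene names and taken from the deposited tables, and all 10 of the 10 names were found among the 16383 genes with counts. The names themselves were chosen by someone who knew the fold changes of this same comparison, among them a rise of SRM after correction for GC content. Levels, fold changes and adjusted p-values of the members are therefore a description of these libraries and not independent support, and no p-value is given for SRM.

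RNA was sequenced from MDA-MB-231, an established human breast cancer line of mesenchymal character, kept in DMEM with serum and antibiotics. The cells received 5 µM c-di-GMP, a signalling dinucleotide of bacteria, or phosphate-buffered saline as the vehicle, for 24 h. Each group has 4 libraries of total RNA, and separate cultures are not named in the labels. The p-values thus reflect the spread among these libraries alone, which may be technical. By its title the series concerns metastasis and PSMD3, which belongs to the regulatory particle of the proteasome, apart from STING.

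Polyamines are small, positively charged molecules that bind nucleic acids and are needed for translation and growth. Ornithine decarboxylase (ODC1) makes putrescine, and the synthases SRM and SMS add aminopropyl groups, taken from S-adenosylmethionine that AMD1 has decarboxylated, to give spermidine and then spermine. SAT1 acetylates spermidine and spermine, PAOX oxidises the acetylated forms, and SMOX oxidises spermine directly. The antizymes OAZ1 and OAZ2 bind ornithine decarboxylase and deliver it to the proteasome without ubiquitin, and AZIN1, a relative of ornithine decarboxylase without its activity, binds the antizymes instead.

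Polyamines raise antizyme production at translation, through a shift of the ribosome by a single base at the end of a short upstream reading frame. The sites are shown because antizyme protein depends on this shift as well as on the RNA measured here. Both windows are mRNA sense sequence from GENCODE 29 transcripts, with the last sense codon and the stop codon of the first frame in capitals.
OAZ1: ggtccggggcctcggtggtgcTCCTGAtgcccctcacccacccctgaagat
OAZ2: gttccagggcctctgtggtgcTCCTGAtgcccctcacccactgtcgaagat
The stop came after 68 codons in OAZ1 and after 32 codons in OAZ2, and the annotation skips a single T there, at chromosome 19 position 2271443 and chromosome 15 position 64691515 of GRCh38. The antizyme windows were identical at 44 of 51 bases, the site included. RNA counts do not show how often the shift was made.

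Among the members with a RefSeq promoter window (GRCh38.p14, 250 bases before to 50 after a gene start), 2 of 7 genes, and 2 of their 10 windows, held CACGTG, the E-box to which MYC and MAX are known to bind. This motif, the only one searched, reads the same on both strands and was present in 7.26% of all 35116 windows of 300 bases. The windows of SRM and ODC1 are shown because they hold the motif, with the E-box in capitals, read 5′ to 3′ on the minus strand.
SRM, chr1:11059969-11060268: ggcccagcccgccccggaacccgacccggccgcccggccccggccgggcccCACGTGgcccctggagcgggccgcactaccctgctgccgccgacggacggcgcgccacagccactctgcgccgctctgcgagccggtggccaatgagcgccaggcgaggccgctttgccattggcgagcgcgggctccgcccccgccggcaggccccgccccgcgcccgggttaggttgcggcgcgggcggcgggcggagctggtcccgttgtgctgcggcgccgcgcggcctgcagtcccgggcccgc
ODC1, chr2:10447963-10448262: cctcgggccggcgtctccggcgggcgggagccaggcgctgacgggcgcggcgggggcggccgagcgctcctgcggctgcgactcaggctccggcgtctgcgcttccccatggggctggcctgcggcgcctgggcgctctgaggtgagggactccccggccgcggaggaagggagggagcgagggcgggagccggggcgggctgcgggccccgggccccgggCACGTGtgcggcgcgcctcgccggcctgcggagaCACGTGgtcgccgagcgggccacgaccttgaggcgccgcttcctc
The ODC1 window shown lies inside the gene as annotated in the deposited tables, whose start on the minus strand is at 10448504. A second RefSeq window of ODC1, chr2:10448278-10448577, spans that start and lacked the motif. The windows of AMD1, OAZ1, OAZ2, SAT1 and SMS lacked it as well. A match is a description of letters and not a binding site.

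The libraries held 16151360 to 18040010 counts, and 1 of them, vehicle replicate 3, stood apart. Its log2 CPM (counts scaled to library size, by TMM) correlated with those of the others at 0.849 to 0.867 across genes, which are not independent replicates, against 0.989 to 0.995 for the 21 pairs among the other 7. All pairs of libraries differed by more than sampling noise, since chi-square per degree of freedom over genes was at least 1.74. It was 2.7 to 7.25 among vehicle replicates 1, 2 and 4 and 1.74 to 3.12 among the c-di-GMP libraries. Against c-di-GMP, vehicle replicate 1 stood at 18.63 to 21.51, replicate 4 at 9 to 10.58 and replicate 2 at 5.84 to 7.2. Vehicle replicate 2 was thus no further from the treated libraries than from vehicle replicate 1. Of the markers of the line, VIM, CD44, FN1 and AXL stood at 505 CPM or more in the other 7 libraries and SPARC at 0.163 to 0.967 CPM. In vehicle replicate 3 these markers did not move together, with VIM at 2140, CD44 at 1010, AXL at 403 and FN1 at 275 CPM against 612 to 766, 795 to 842, 1060 to 1270 and 505 to 572 CPM in the others. The 5 luminal markers with counts (GATA3, KRT8, KRT18, EPCAM and CDH1) summed to 953 to 1002 CPM in vehicle replicates 1, 2 and 4, to 958 to 973 CPM with c-di-GMP and to 2235 CPM in vehicle replicate 3. These sums are mostly KRT8 and KRT18, and the markers did not move together. In vehicle replicate 3 CDH1 was lower, at 1.56 CPM against 1.89 to 3.9 CPM, and the others were higher. Without that library, GATA3 had a log2 fold change of -0.41 ± 0.09 with c-di-GMP and CDH1 of 0.57 ± 0.19 (edgeR adjusted p = 0.00146 and 0.0298). GC-corrected they stood at -0.33 ± 0.09 and 0.55 ± 0.19 (edgeR adjusted p = 0.00988 and 0.0524). CD14, the leukocyte marker with counts out of 4, stood at 10.2 to 16.7 CPM in the 7 libraries and at 29.97 CPM in vehicle replicate 3, and the 2 endothelial markers with counts of 3 summed to 8.16 to 11.5 CPM and to 17.8 CPM there. The 2 fibroblast markers with counts of 4, COL1A1 and PDGFRB, summed to 26.6 to 30.1 CPM in vehicle replicates 1, 2 and 4, to 22.9 to 24.2 CPM with c-di-GMP and to 4.95 CPM in vehicle replicate 3, and their part in the results was not tested. The members' fold changes, levels and ratios are given below with and without vehicle replicate 3, and the genes most like SRM were sought in the other 7 libraries alone.

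In CPM scaled by TMM, vehicle replicate 3 was the highest of all 8 libraries for 9 of the 10 members. In unscaled counts it was the lowest for SRM and AZIN1, at 1951 and 2921 against at least 2314 and 3681 in the others. SMOX had 329 counts there against 351 to 401 in vehicle replicates 1, 2 and 4. The share of all genes highest in this library was not counted. Relative to the mean of vehicle replicates 1, 2 and 4, vehicle replicate 3 held 7.54 times the scaled level of SAT1, 6.21 times that of OAZ1, 5.45 times that of SMS and 3.40 times that of ODC1. AMD1, OAZ2, SMOX, SRM and AZIN1 stood at 1.27 to 2.07 times, and PAOX at 0.973 times. The longest transcripts of SAT1 and SMS have 1135 and 1837 bases and those of AMD1, AZIN1 and OAZ2 between 4721 and 7102 bases, but SRM, with 1266 bases, was raised less than AMD1. PAOX, with 1858 bases, was not raised, and SMOX, with 2322 bases, stood at 1.44 times. OAZ1, with 2832 bases, was raised more than SMS. What part length, GC content or RNA quality had in this library was not tested.

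**Figure D1:**
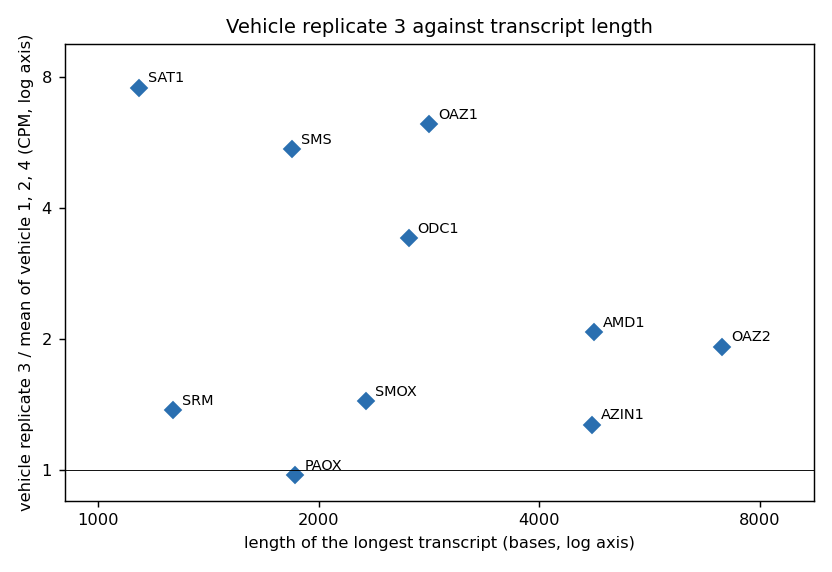
The level in vehicle replicate 3 divided by the mean of vehicle replicates 1, 2 and 4 (CPM, log axis) against the length of each gene's longest transcript (bases, log axis), with 1 point per gene. SAT1 is highest at 7.54 and PAOX lowest at 0.973.

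Per length of gene, SMS had the highest deposited level of the members and PAOX the lowest. The deposited FPKM values (fragments per kilobase of gene, scaled to the library size) averaged 124 for SMS, 78.7 for OAZ1, 68.6 for SRM, 65.7 for ODC1 and 65.7 for SAT1 over the 7 libraries without vehicle replicate 3. AZIN1 followed at 33.8, AMD1 at 16.1, OAZ2 at 8.79, SMOX at 6.47 and PAOX at 5.00 FPKM. SRM, ODC1 and SAT1 overlapped, at 64.8 to 72.2, 59.8 to 69.8 and 56.9 to 71.9 FPKM, so that their order is not resolved. The other neighbours in the order did not overlap. Other genes are annotated on the same strand over OAZ1 (AC005258.1) and over the end of PAOX (AL360181.3). The levels of OAZ1 and PAOX, and their places in this order, are therefore uncertain. In vehicle replicate 3 the order differed, with SMS at 617, OAZ1 at 483, SAT1 at 445, ODC1 at 205, SRM at 88.7, AZIN1 at 39.2, AMD1 at 29.3, OAZ2 at 16.3, SMOX at 9.64 and PAOX at 5.35 FPKM. Over the other 7 libraries SMS and OAZ1 ranked 207 and 421 among the 16383 genes with FPKM and PAOX ranked 7229. Within the catabolic branch, the acetyltransferase SAT1 thus stood far above the oxidases SMOX and PAOX.

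**Figure D2:**
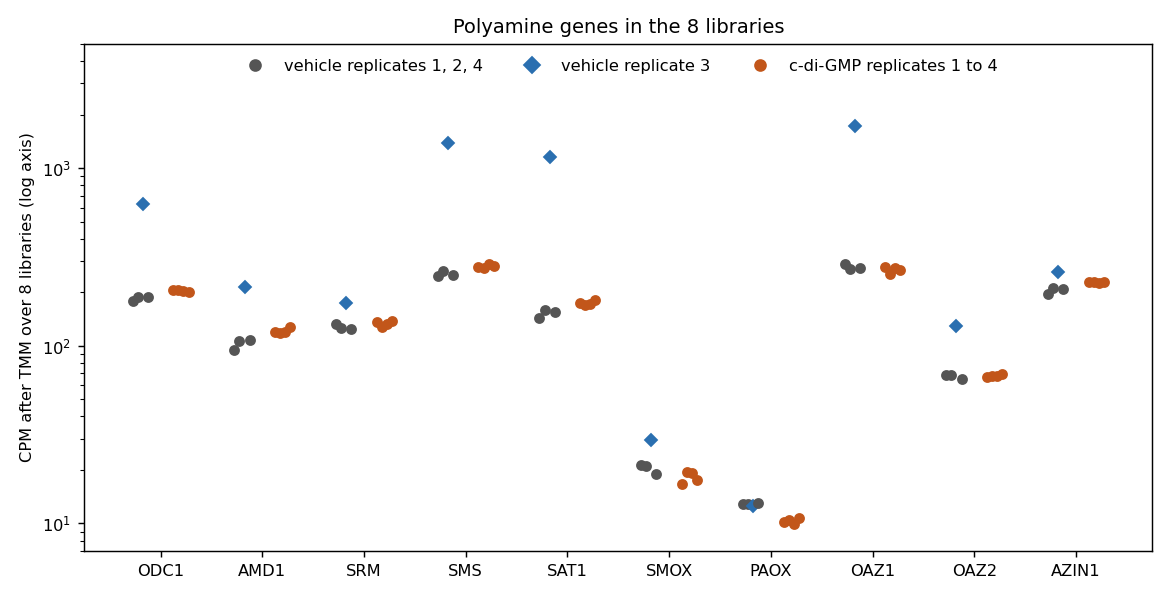
Level of each member in each library, in CPM after TMM scaling over the 8 libraries (log axis), with 1 point per library. Vehicle replicate 3 (diamonds) lies above every other library except for PAOX, and the groups without it differ by little against the distance between genes.

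With all 8 libraries, 0 of the 10 members passed the threshold (edgeR adjusted p under 0.05), and 0% of the 15415 genes tested did. With no adjustment, edgeR placed 960 genes under 0.05, and PAOX was the member among them. DESeq2 called 106 genes, 0 of them members, but it gave no adjusted p for SMS, SAT1 and OAZ1, which therefore could not be called. The log2 fold changes were below 0 for 9 members, from -0.06 ± 0.13 (SE) for SRM to -1.25 ± 0.65 for OAZ1, and AZIN1 stood at 0.06 ± 0.12. Scaling moved these values: without TMM the median of all genes was 0.08 instead of -0.05, and SRM and AMD1 stood at 0.12 and 0.13. With the GC trend taken out of all 8 libraries, 0 members and 0 genes passed edgeR's threshold either. SRM then stood at 0.26 ± 0.13 and the other 9 members below 0, among them OAZ1 at -1.10 ± 0.68, ODC1 at -0.57 ± 0.47 and AMD1 at -0.25 ± 0.27. Without vehicle replicate 3 the uncorrected sign turned for 6 members, namely SRM, SMS, ODC1, AMD1, SAT1 and OAZ2.

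Without vehicle replicate 3, 29.6% of the 15647 genes tested were called in either direction. Here 5 of the 10 members were higher with c-di-GMP (13.5% of genes were) and 1 was lower (16.2% were), by edgeR's test with Benjamini-Hochberg adjustment over all genes. The higher members were ODC1, AMD1, SMS, SAT1 and AZIN1, and the lower one was PAOX. Fold changes in these 7 libraries followed the GC content of the transcripts, so a fit with each library's own GC trend taken out is given beside the first and called GC-corrected. In it 6 of the 10 were higher (8.58% of genes were) and 0 were lower (6.62% were). SRM, chosen with this rise known, and OAZ1 joined the higher members, and AZIN1 and PAOX left the called ones. In both fits 4 (SMS, ODC1, AMD1 and SAT1) were higher. With a trend on gene length taken out as well, 4 were higher (7.66% of genes were) and 0 were lower (5.74% were), namely SRM, ODC1, AMD1 and OAZ1. ODC1 and AMD1 were the 2 members called higher in all 3 fits. The members' median log2 fold change was 0.10 uncorrected, 0.10 GC-corrected and 0.05 with length as well, beside 0.0014, -0.0029 and -5e-04 over all genes tested.

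**Figure D3:**
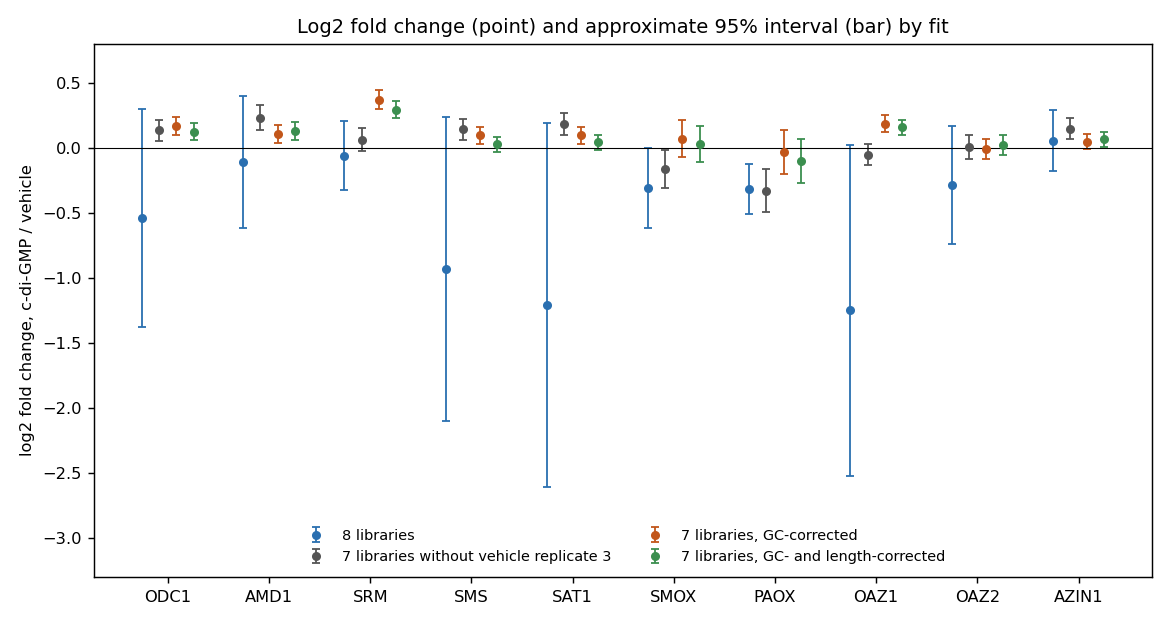
Log2 fold change of c-di-GMP against vehicle for each member (points) with an approximate 95% interval (bars) in 4 fits. The 8-library intervals are wide and lie mostly below 0, and ODC1 and AMD1 lie above 0 in the 3 fits of 7 libraries.

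Without vehicle replicate 3 both rate-limiting decarboxylases were higher with c-di-GMP, and with it their log2 fold changes were -0.54 ± 0.43 (ODC1) and -0.11 ± 0.26 (AMD1). Single values below are given in the order of vehicle replicates 1, 2 and 4 and of c-di-GMP replicates 1 to 4. ODC1 (ENSG00000115758, chromosome 2, 10439968 to 10448504) measured 191, 200.1 and 199.7 CPM under vehicle against 219, 218, 214 and 214 CPM in the treated libraries. The groups did not overlap. Scaled with all 8 libraries, vehicle replicate 3 had 631 CPM, above them all. The log2 fold change was 0.14 ± 0.04 (SE), 0.17 ± 0.03 GC-corrected and 0.13 ± 0.03 with length as well (edgeR adjusted p = 0.013, 0.000926 and 0.0063). GC-corrected it stayed past the threshold without any single library of the 7, and uncorrected it missed it without c-di-GMP replicate 1 (edgeR adjusted p = 0.06).

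AMD1 (ENSG00000123505, chromosome 6, 110874770 to 110895713), the S-adenosylmethionine decarboxylase, measured 101, 112 and 115 CPM under vehicle against 127, 126, 127 and 135 CPM in the treated libraries. Vehicle replicate 1 was the lowest library and the groups did not overlap, but vehicle replicate 3, scaled with all 8 libraries, had 213 CPM. Its log2 fold change was 0.23 ± 0.05, 0.10 ± 0.04 GC-corrected and 0.13 ± 0.03 with length as well (edgeR adjusted p = 0.000746, 0.0473 and 0.0114). GC-corrected the call was kept without c-di-GMP replicate 2 and lost without any other single library of the 7, with edgeR adjusted p of up to 0.213 without vehicle replicate 1. AMD1 has the lowest GC content of the members, 37.7%, and 956 other genes within 1 point of it had a median log2 fold change of 0.13 before correction. Named pseudogene copies of AMD1 and SRM were not among the genes with counts, and reads they share with their parent genes are uncertain.

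The aminopropyl transferases moved differently with the correction. SRM (ENSG00000116649, chromosome 1, 11054584 to 11060024), the spermidine synthase, measured 140.3, 133 and 133 CPM under vehicle against 145, 136, 139.6 and 146 CPM in the treated libraries, and the groups overlapped. GC-corrected, the values were 113, 125 and 120.2 CPM under vehicle against 156, 151, 150.4 and 161 CPM, without overlap. Its log2 fold change was 0.07 ± 0.04 (approximate 95% interval -0.02 to 0.15). After GC correction it was 0.37 ± 0.04 (interval 0.30 to 0.45), the rise that was known when the members were chosen. With length as well it was 0.29 ± 0.03, and 0.33 to 0.41 GC-corrected when each of the 7 libraries was left out in turn. SRM lies at 63.7% GC, above 94.7% of the listed genes, and 539 other genes within 1 point of it had a median of -0.31 before correction and, as the correction is built to give, -0.01 after it. The trend taken out of SRM was 0.31 on the log2 scale in vehicle replicate 1, 0.09 and 0.14 in vehicle replicates 2 and 4, and -0.11 to -0.15 with c-di-GMP.

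**Figure D4:**
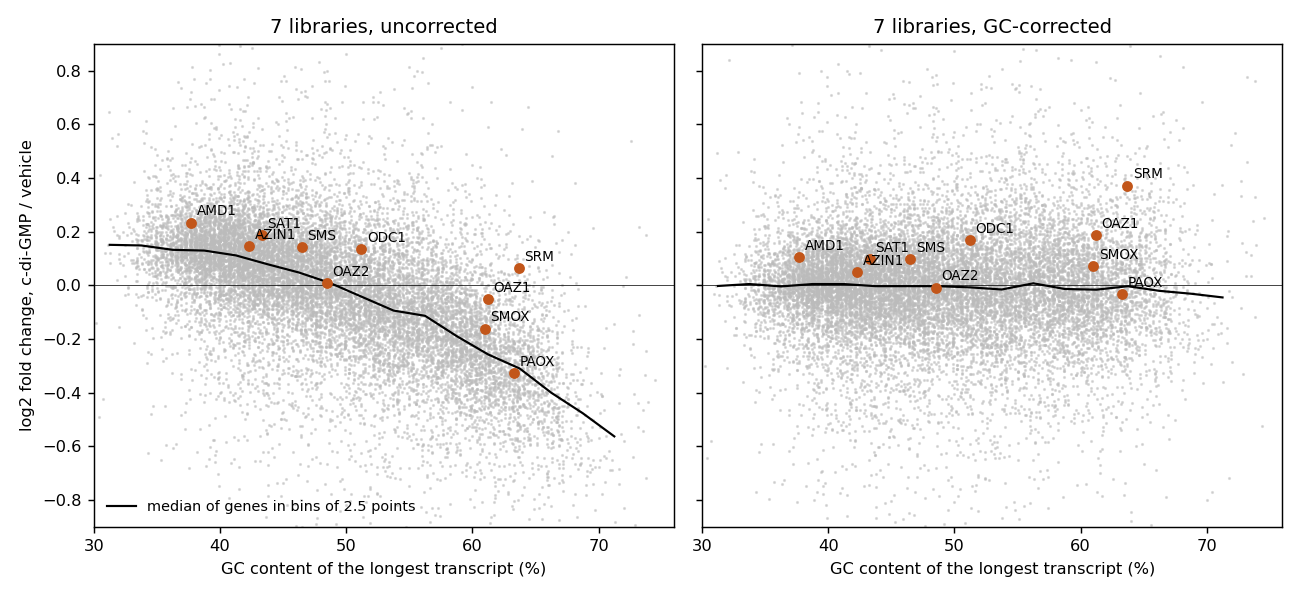
Log2 fold change of every tested gene (grey) and of the members (orange) in the 7 libraries against the GC content of the longest transcript, before (left) and after (right) GC correction, with the median of genes in bins of 2.5 points of at least 20 genes as a line. SRM lies at 0.07 where the line is near -0.31 on the left and at 0.37 on the right, PAOX lies close to the line on both sides, and 113 and 87 genes fall outside the axes.

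SMS (ENSG00000102172, chromosome X, 21940573 to 21994835), the spermine synthase, measured 263, 278 and 265 CPM under vehicle against 292, 291, 305 and 299.7 CPM in the treated libraries, without overlap. Its log2 fold change was 0.14 ± 0.04, 0.10 ± 0.03 GC-corrected and 0.03 ± 0.03 with length as well (edgeR adjusted p = 0.00945, 0.0419 and 0.575). The call thus ended when length was taken out. With all 8 libraries the log2 fold change of SMS was -0.93 ± 0.60, and vehicle replicate 3 had 1381 CPM on that scale. The GC-corrected call was also lost without vehicle replicate 1 or 4 or c-di-GMP replicate 1, 3 or 4 (edgeR adjusted p of up to 0.17), and uncorrected it also ended without vehicle replicate 4 (edgeR adjusted p = 0.0522). The number of SMS reads per SRM read overlapped between the groups, at 1.88 to 2.09 with vehicle and 2.02 to 2.19 with c-di-GMP, and stood at 7.92 in vehicle replicate 3. GC-corrected it did not overlap and was lower with c-di-GMP, at 1.83 to 2.00 against 2.24 to 2.38.

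On the catabolic side SAT1 stood higher and PAOX lower before correction. SAT1 (ENSG00000130066, chromosome X, 23783173 to 23786226) measured 153, 168 and 166 CPM under vehicle against 184, 181, 182 and 191 CPM in the treated libraries, without overlap. Its log2 fold change was 0.19 ± 0.04, 0.10 ± 0.03 GC-corrected and 0.04 ± 0.03 with length as well (edgeR adjusted p = 0.00237, 0.0492 and 0.428). The GC-corrected call was lost without vehicle replicate 1 or 4 or c-di-GMP replicate 1, 3 or 4 (edgeR adjusted p of up to 0.216) and with no filter on low counts (edgeR adjusted p = 0.0504). It was the member raised most in vehicle replicate 3, with 1152 CPM when scaled with all 8 libraries, and the 8-library log2 fold change was -1.21 ± 0.72.

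PAOX (ENSG00000148832, chromosome 10, 133379234 to 133391694), the oxidase of acetylated polyamines, measured 13.7, 13.6 and 13.9 CPM under vehicle, from 242 to 246 counts each, against 10.8, 11.1, 10.5 and 11.4 CPM in the treated libraries. It is the member whose groups did not overlap with vehicle replicate 3 included, which stood at 12.6 CPM beside 9.92 to 10.7 CPM with c-di-GMP on the scale of all 8 libraries. Among all genes, 14.2% had groups that did not overlap there. The log2 fold change was -0.33 ± 0.09 (edgeR adjusted p = 0.00522), kept its call without any single library of the 7, and was -0.32 ± 0.10 with all 8. GC-corrected it was -0.03 ± 0.09, with an interval from -0.20 to 0.14, and the groups overlapped. AL360181.3, annotated on the same strand over the end of PAOX, from 133390834 to 133391694, makes its counts uncertain. PAOX lies at 63.3% GC, close to SRM, and 556 other genes within 1 point had a median of -0.31 before correction. SRM had the higher fold change in each of the 7-library fits, but it was chosen with its rise known, so this order is a description alone. SMOX (ENSG00000088826, chromosome 20, 4120980 to 4187747), the spermine oxidase, overlapped between the groups at 17.7 to 22.8 CPM and had -0.16 ± 0.08 and 0.07 ± 0.07 GC-corrected (edgeR adjusted p = 0.112 and 0.577). In vehicle replicate 3 it had 29.4 CPM, scaled with all 8 libraries, and its 8-library log2 fold change was -0.31 ± 0.16.

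Of the antizymes, OAZ1 was higher in the 7 libraries only after correction, and OAZ2 had values near 0 there. With vehicle replicate 3 they stood at -1.25 ± 0.65 and -0.29 ± 0.23, and at -1.10 ± 0.68 and -0.32 ± 0.25 with the GC trend taken out. OAZ1 (ENSG00000104904, chromosome 19, 2269509 to 2273490) measured 305, 286 and 291 CPM under vehicle against 293, 269, 291 and 283 CPM in the treated libraries, and the groups overlapped. GC-corrected it measured 256, 273 and 271 CPM under vehicle against 311, 291, 308 and 306 CPM, without overlap. The log2 fold change was -0.05 ± 0.04, 0.19 ± 0.03 GC-corrected and 0.16 ± 0.03 with length as well (edgeR adjusted p = 0.402, 0.000332 and 0.000524), and both corrected values were higher by more than the spread between libraries. GC-corrected it kept its call without any single library of the 7. The gene lies at 61.2% GC, and 777 other genes within 1 point had a median of -0.25 before correction. AC005258.1, annotated on the same strand over nearly all of OAZ1, makes its counts uncertain. OAZ2 (ENSG00000180304, chromosome 15, 64687573 to 64703281) overlapped between the groups at 69.5 to 73.8 CPM, with 0.01 ± 0.05 and an interval from -0.08 to 0.10, and -0.01 ± 0.04 GC-corrected.

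AZIN1 (ENSG00000155096, chromosome 8, 102826357 to 102893864), the antizyme inhibitor, measured 209, 225 and 222 CPM under vehicle against 243, 242, 239.5 and 244 CPM in the treated libraries. Its c-di-GMP libraries lay within an SD of 0.702% of their mean, and the groups did not overlap on this scale or GC-corrected. The log2 fold change was 0.15 ± 0.04, and 0.05 ± 0.03 GC-corrected, with an interval from -0.01 to 0.11 (edgeR adjusted p = 0.00814 and 0.324). With vehicle replicate 3, at 261 CPM when scaled with all 8, the groups overlapped and the log2 fold change was 0.06 ± 0.12. In all, the groups of 6 members did not overlap before correction (35.7% of genes) and those of 7 did not GC-corrected (23.5% of genes).

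Ratios of reads within a library do not depend on its scaling, and some of them turned with the correction as well. The pairs were chosen after the values were seen. Ratios over OAZ1 are uncertain as well, since AC005258.1 is annotated over that gene on the same strand. AZIN1 reads per OAZ1 read stood at 0.685, 0.785 and 0.762 in vehicle replicates 1, 2 and 4 and at 0.827, 0.90, 0.823 and 0.862 with c-di-GMP, higher in all 4. GC-corrected the order was reversed, at 0.872, 0.839 and 0.837 with vehicle and 0.760, 0.801, 0.759 and 0.769 with c-di-GMP. AMD1 reads per SRM read likewise stood at 0.717 to 0.868 with vehicle and at 0.876 to 0.923 with c-di-GMP, and GC-corrected at 0.923 to 0.980 and at 0.783 to 0.817. ODC1 reads per OAZ1 read were higher with c-di-GMP, at 0.736 to 0.812 against 0.626 to 0.699, and overlapped GC-corrected. SAT1 reads per ODC1 read overlapped between the groups on both scales. Vehicle replicate 3 lay outside all of these count ranges, at 0.152 for AZIN1 per OAZ1, 1.22 for AMD1 per SRM, 0.367 for ODC1 per OAZ1 and 1.83 for SAT1 per ODC1. In these ratios AZIN1 and AMD1, of low GC content, and OAZ1 and SRM, of high GC content, are the pairs whose order turned.

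**Figure D5:**
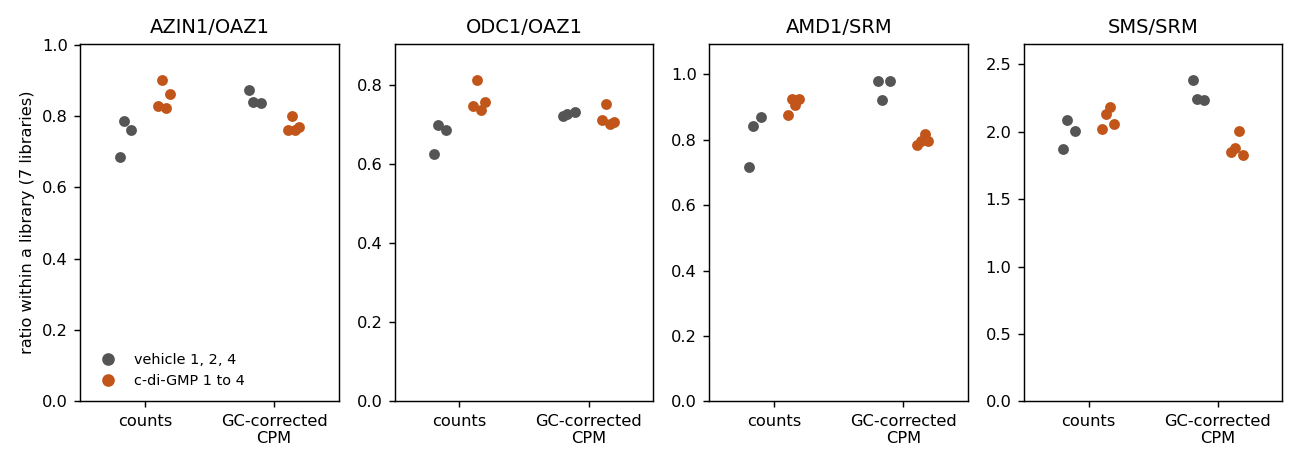
Ratio of 2 members within each of 7 libraries, from counts (left of each panel) and from GC-corrected CPM (right), with 1 point per library and an axis from 0. The order of the groups is opposite on the 2 scales for AZIN1/OAZ1 and AMD1/SRM.

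The libraries' pattern of GC-corrected SRM was shared closely by EXOSC5, FAU, HIGD2A, SSNA1 and FXYD5, the 5 protein-coding genes with the smallest root mean square difference from it among 7955 genes of at least 20 CPM. Their differences were 0.0248 to 0.0298 on the log2 scale over 7 libraries, while SRM itself had an SD of 0.206 over the same libraries. EXOSC5 encodes a subunit of the RNA exosome and FAU a ribosomal protein fusion. The 5 genes were picked on these same values, which sets their GC-corrected log2 fold changes, of 0.32 to 0.35, near that of SRM. Before correction the fold changes ranged from -0.07 for SSNA1 to 0.29 for FAU.

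Genes around the pathway were taken from lists chosen with earlier results known. Their counts stand beside 13.5% of all genes higher and 16.2% lower before correction and 8.58% and 6.62% after it, and with 3 to 13 tested genes a list, a count of 0 or 1 is near those shares. Each count below is of tested genes, in the 7 libraries, that rose and fell, before and then after GC correction, and genes named were taken by rule or, for EIF5A, AZIN2, DOHH and the genes called before correction alone, after their values were seen. Of the other enzymes and paralogs, 3 were tested, and 0 rose and 1 fell before correction, AZIN2 at -0.30 ± 0.09, with 0 and 0 after it. With all 8 libraries edgeR called 0 genes in each of these lists, and AZIN2 stood at -0.51 ± 0.20.

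Arginine and ornithine supply had 10 tested genes, of which 1 rose and 3 fell, and GC-corrected 0 rose and 1 fell. PYCR1, which makes proline from the same precursor as ornithine, averaged 74.3 ± 6.61 CPM under vehicle (SD, n = 3) and 55.1 ± 0.832 CPM under treatment (SD, n = 4). It fell by 0.43 ± 0.06 on the log2 scale, and by 0.18 ± 0.04 after GC correction (edgeR adjusted p = 3.61e-06 and 0.00641). The others called before correction were the transporters SLC7A2, at 0.17 ± 0.06, and SLC7A1, at -0.14 ± 0.04, and PYCR3, at -0.23 ± 0.07. The median of the list was -0.11 and 0.01 GC-corrected. In the 8-library fit PYCR1 stood at -0.07 ± 0.54, SLC7A2 at 0.36 ± 0.22, SLC7A1 at 0.09 ± 0.27 and PYCR3 at -0.56 ± 0.26.

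The methionine cycle and salvage, which supply and recover S-adenosylmethionine, had 13 tested genes, of which 4 rose before correction and 0 after it. MAT2A, which makes S-adenosylmethionine, had 0.14 ± 0.04 and 0.08 ± 0.03 GC-corrected (edgeR adjusted p = 0.0136 and 0.104). MTRR, APIP and ADI1 were the other rises before correction, and MRI1 fell, at -0.25 ± 0.08. When vehicle replicate 3 was kept, MAT2A stood at 0.47 ± 0.47 and MRI1 at -0.05 ± 0.23. MTAP, the salvage phosphorylase, was not analysed here.

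The hypusine pathway turns spermidine into a modified lysine of the translation factor EIF5A. Of its 5 tested genes, 0 rose and 1 fell, and GC-corrected 1 rose and 0 fell. EIF5A had 0.09 ± 0.04 before correction and rose by 0.23 ± 0.04 after it (edgeR adjusted p = 0.119 and 0.000108). Uncorrected levels were 553 ± 22.8 CPM under vehicle (SD, n = 3) and 587 ± 9.51 CPM under treatment (SD, n = 4). Its near-identical copies EIF5AL1 and EIF5AP4 can share its reads, so that its value is uncertain. DOHH, the hydroxylase of the pathway, fell by 0.45 ± 0.07 before correction and stood at -0.04 ± 0.06 after it. With all 8 libraries EIF5A stood at 1e-04 ± 0.13 and DOHH at -0.9955 ± 0.37.

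Polyamine transport and uptake had 9 tested genes, of which 2 rose and 3 fell, and GC-corrected 1 rose and 0 fell. CAV1, a caveolin, rose by 0.25 ± 0.04 and by 0.20 ± 0.03 GC-corrected (edgeR adjusted p = 0.000124 and 0.000227). Uptake itself was not measured. The lysosomal polyamine exporter ATP13A2 fell by 0.32 ± 0.05 before correction and stood at 0.0018 ± 0.04 after it, SLC3A2 and GPC1 fell before it as well, and SLC18B1 rose. Over the 8 libraries CAV1 stood at 0.36 ± 0.15 and ATP13A2 at -0.08 ± 0.28.

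The MYC network had 10 tested genes, of which 1 rose and 5 fell, and GC-corrected 1 rose and 1 fell. MAX, the partner of MYC, rose by 0.17 ± 0.05 and by 0.21 ± 0.05 GC-corrected, and MXD4, an antagonist of MYC, fell by 0.28 ± 0.05 and by 0.13 ± 0.04 GC-corrected (edgeR adjusted p = 0.00398 and 0.0275 after correction). MYC itself averaged 215 ± 22.3 CPM under vehicle (SD, n = 3) and 191 ± 4.70 CPM under treatment (SD, n = 4), with -0.17 ± 0.05 and -0.09 ± 0.04 GC-corrected (edgeR adjusted p = 0.0166 and 0.156). With length taken out as well it stood at -0.13 ± 0.04 (edgeR adjusted p = 0.0209). MNT, MXD3 and MLXIP were the other falls before correction. With all 8 libraries MYC stood at 0.09 ± 0.31, MAX at -0.09 ± 0.22 and MXD4 at -0.31 ± 0.10.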

How the data were processed

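Total RNA libraries of 4 vehicle-treated and 4 c-di-GMP-treated samples were grouped by their titles, and the library column names were matched through the samples' descriptions. The authors deposited read counts per gene and FPKM values, with gene lengths in bases. The submitters' processing notes name HISAT2 2.0.5 and featureCounts 1.5.0-p3, beside fastp, CASAVA 1.8 and DESeq2 1.20.0, without saying how each was used, and the build mm10, whereas all 16383 genes of the count table carry human identifiers with the coordinates of GENCODE 29. Whether counting used strand is not given in the sources used here.

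Counts were filtered with filterByExpr (minimum count 10, total 15), scaled by TMM and tested with edgeR 4.0.16 (quasi-likelihood F test, R 4.3.3), Benjamini-Hochberg adjusted over all genes tested, threshold 0.05. To correct for GC, log2 CPM (prior count 2) was centred per gene, and within every library a lowess curve (span 0.3) against transcript GC (longest transcript per gene) served as the offset. A second curve, against gene length, was added where length was taken out. Standard errors come from the F statistic, and 95% intervals are approximate. FPKM values describe levels and, with a pseudocount of 1 or 0.1, enter alternatives with limma 3.58.1. DESeq2 1.42.0 was another alternative. The tests were tried on simulated counts.

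The members and lists were chosen with earlier results of these data known. The text names all members, of each companion list up to 3 genes called in the same direction with and without GC correction, MYC, MAT2A and MTAP, and the 5 genes most like SRM. One result of the methionine list is not reported here.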

Additional observations from a re-analysis of the deposited data

Results flagged for a closer look

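Of 20 groups of 4 libraries (10 genes in either treatment), 8 held a library far from the other 3, measured by its gap to the nearest divided by the range of the group, where chance gives about 1 in 20. In 7 of them the library was vehicle replicate 3, which was the highest for SRM at 174 CPM, SMS at 1381 CPM, ODC1 at 631 CPM, AMD1 at 213 CPM, SAT1 at 1152 CPM, OAZ1 at 1719 CPM and OAZ2 at 129.5 CPM, on the scale of all 8 libraries. The other was AMD1 in c-di-GMP replicate 4, at 127 CPM. Without that library the uncorrected log2 fold change of AMD1 stayed above 0 and past the threshold, and the GC-corrected one, at 0.08, missed it (edgeR adjusted p = 0.178).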

How the results depend on the processing

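Without vehicle replicate 3 the 8-library fit went from 0 to 4632 calls, and leaving out each library in turn gave 0 to 4632 genes, 0 to 5 members higher and 0 to 1 lower. The log2 fold changes then ranged from -1.17 to 0.14 for SMS, -0.71 to 0.14 for ODC1, -0.23 to 0.23 for AMD1 and -1.48 to 0.19 for SAT1, above 0 in each case without that library alone. DESeq2 called 106 genes with 8 libraries. With 7 libraries and no correction, every alternative kept 4 or 5 members higher and 1 lower, and left-out libraries gave 3440 to 4826 genes. The GC-corrected count of 2378 genes ranged from 1476 (without vehicle replicate 1) to 2638, with 1551 without vehicle replicate 4, and that of 6 higher members from 3 to 6, with 3 without vehicle replicate 1 or 4 or c-di-GMP replicate 1, 3 or 4. SRM, ODC1 and OAZ1 kept their calls in each of these 7 fits, and the cause of the other losses was not tested. For SRM, whose rise was known when the members were chosen, this is a description and not support. Same-numbered libraries deviated together little (correlations of -0.058 to 0.184 over 8 libraries and -0.005 to 0.01 over 7). Over 8 libraries c-di-GMP replicate 2 had 0.176 and 0.18 with vehicle replicates 1 and 4 as well. The labels name no pairs, and whether libraries shared a batch was not tested. With the replicate block edgeR called 0 genes in 8 libraries, 4093 in 7 and 1598 GC-corrected, where 3 members stayed higher. What size of change this depth could show is not reported here.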
